A study of Homo sapiens with 6 samples.

Results

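The CAMK2 and IP6K kinase paralogs are 7 genes of the deposited expected count table, found by symbol: CAMK2A, CAMK2B, CAMK2D and CAMK2G, and IP6K1, IP6K2 and IP6K3, of 57736 genes in all. CAMK2B and IP6K3 entered because their levels were higher in the NRG1 libraries, and the other 5 because they are their paralogs. The contrast of NRG1 against control therefore chose the members, and their values in it are given as a description, with no test. The cells were AALE, an established human line of basal cells from the bronchial epithelium that carry SV40 genes and telomerase, grown in a small airway medium. Stable pools carried a control vector or a vector for overexpression of NRG1, both lentiviral, and NRG1 encodes neuregulin, a growth factor that binds ERBB receptors. Both groups thus share the SV40 and telomerase background and a lentiviral insertion. PolyA RNA of 3 control and 3 NRG1 libraries was sequenced, and the sources used here do not give the vector's promoter. Nothing in the labels ties the libraries of a group to separate cultures, so p-values measure only the spread between libraries, which may be technical.

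CAMK2 genes encode the chains of calcium and calmodulin-dependent protein kinase II, a ring-shaped enzyme that calcium-bound calmodulin switches on and that can keep itself on by phosphorylating its own chains. Different paralogs can share a ring. CAMK2A and CAMK2B are best known from neurons, and CAMK2B also from muscle, while CAMK2D and CAMK2G are made in most tissues. IP6K genes encode inositol hexakisphosphate kinases, which add a further phosphate to a phosphate that the inositol ring already carries. They so make inositol pyrophosphates, energy-rich messengers tied to phosphate balance, insulin signalling and vesicle traffic. IP6K1 and IP6K2 are broadly expressed, and IP6K3 is known mainly from muscle and brain.

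The letters before the annotated starts of the 2 chosen paralogs are shown because both genes were high in the same libraries; they were taken from RefSeq (GRCh38.p14), matched by symbol, and run 5′ to 3′ on the gene's strand over the 250 bases before the start, with every CG pair in capitals. The CAMK2B stretch lies at chr7:44325595-44325844 on the minus strand and the IP6K3 stretch at chr6:33746906-33747155 on the minus strand.
CAMK2B: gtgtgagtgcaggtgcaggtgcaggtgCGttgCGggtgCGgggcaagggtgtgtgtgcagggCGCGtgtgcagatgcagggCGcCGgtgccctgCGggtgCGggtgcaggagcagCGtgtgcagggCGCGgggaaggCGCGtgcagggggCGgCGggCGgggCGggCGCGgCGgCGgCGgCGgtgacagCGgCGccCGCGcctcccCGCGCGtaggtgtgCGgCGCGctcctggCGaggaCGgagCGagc
IP6K3: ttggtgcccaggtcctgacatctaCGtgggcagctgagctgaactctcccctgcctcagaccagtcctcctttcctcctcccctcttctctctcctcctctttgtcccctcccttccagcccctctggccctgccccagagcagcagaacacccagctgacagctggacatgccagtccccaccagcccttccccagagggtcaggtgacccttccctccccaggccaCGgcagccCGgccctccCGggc
The pair differed in composition. CAMK2B held 37 CG pairs, more than 96.0% of the 35116 RefSeq promoter entries, and 78.4% of its bases were G or C. IP6K3 held 4 CG pairs, more than 29.3% of the entries, at 66.0% G or C. The median entry held 11. The other promoters held 10 CG pairs in CAMK2A, 17 in CAMK2D, 32 in CAMK2G, 20 in IP6K2, and 27 and 19 at the 2 annotated starts of IP6K1.

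A search of both strands for 7 short motifs, with overlapping matches counted, found none that CAMK2B and IP6K3 shared. IP6K3 held CAGCTG, an E-box form that reads the same on both strands, at positions -220, -97 and -90 from the start. Of all entries, 14% held at least 1 copy and 0.0997% held 3 or more. The count of 3 is that of IP6K3 itself, and the motifs were chosen after the files were seen, so nothing is read from the low share. CAMK2B held GGGCGG, the core of the GC box, at -103, -96 and -91 (the last 2 share a base). This motif was in 42.6% of all entries and in 5 of the 8 member entries, also those of CAMK2G, IP6K1 and IP6K2, but not in IP6K3. TATAAA (10.7% of entries), TGACTCA (4.2%) and GGAATG (11.9%) were found in none of the 8 member entries, CCAAT (32%) in 1 entry each of IP6K1 and IP6K2, and CCGGAAG (8.5%) in IP6K2. The deposited gene counts do not show which start the cells used.

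The vector checked as labelled. NRG1 was at 11.6, 7.87 and 12.3 CPM in controls 1 to 3, against 6647, 3854 and 3781 CPM in libraries NRG1 1 to 3, where CPM scales a gene's counts to the library's size, adjusted between libraries by the TMM method. It rose 8.80 on the log2 scale (SE 0.38; adjusted p = 0.00012, edgeR quasi-likelihood, Benjamini-Hochberg over 15421 genes). Reads of the vector and of the cells' own NRG1 cannot be told apart. Library totals ran from 8612234 to 13207620 expected counts. The basal keratin KRT5 was at 3141 CPM or more in every library, and the basal factor TP63 at 158 CPM or more. Of the 12 basal markers, all tested, edgeR called 0, and 6 (2 higher, 4 with lower levels) had an unadjusted p under 0.05 (11.8% of all tested genes in either direction). All NRG1 libraries lay below all controls in 3 of the 12, KRT14, KRT17 and NGFR (10.2% of all tested genes), and above them in 1, DLK2 (9.36%). KRT14 averaged 959 CPM among controls and 176 CPM among NRG1 libraries, KRT17 2811 and 1410 CPM, and DLK2 16.5 and 23.2 CPM. NGFR was at 18.3, 46.8 and 302 CPM in controls 1 to 3, against 13.6 to 15.7 CPM among NRG1 libraries. DSG3 averaged 223 CPM among controls and 420 CPM among NRG1 libraries, with overlapping groups. KRT15 was at 7.49 to 16.2 CPM among controls, 13.4 CPM in library NRG1 1, and 80.4 and 79.4 CPM in the NRG1 2 and NRG1 3 libraries. Libraries control 3 and NRG1 1 lay far from the others of their group: on the first principal component of all tested genes (44.5% of the variance) control 3 lay at -79.3, control 1, control 2 and NRG1 1 at -4.16, 0.68 and 0.88, and NRG1 2 and NRG1 3 at 41.3 and 40.5, while the second (27.3%) set NRG1 1 at 65.4 against -23.2 to 7.46 in the others. Member fold changes and calls that rest on these 2 libraries are therefore also given without them.

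CAMK2B was the CAMK2 gene with higher levels in the NRG1 pools. Its level was 3.39, 1.92 and 1.47 CPM in controls 1 to 3, from 42, 19 and 19 expected counts, and 8.16, 22.05 and 17.8 CPM in libraries NRG1 1 to 3, from 66, 235.74 and 164 expected counts. Every NRG1 library lay above every control, with NRG1 1 the lowest of its group and control 1 the highest of its own. The exact 95% Poisson interval, which covers counting error only, was 2.44 to 4.58 CPM for control 1 and 6.31 to 10.4 CPM for NRG1 1. Controls averaged 2.26 ± 1.00 CPM and NRG1 libraries 16.0 ± 7.12 CPM (SD, n = 3 each), a ratio of 7.09 and a fitted log2 fold change of 2.83 (SE 0.48). Without control 3 and NRG1 1 the fitted value was 2.87.

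IP6K3 showed the same order of libraries at a higher level. It was at 9.11, 6.055 and 2.32 CPM in controls 1 to 3, from 113, 60 and 30 expected counts, and at 18.05, 54.5 and 50.7 CPM in libraries NRG1 1 to 3, from 146, 582.68 and 466.98 expected counts. Again all NRG1 libraries lay above all controls; NRG1 1 was again nearest to the controls and control 3 was again lowest. Its exact 95% Poisson interval was 7.51 to 10.95 CPM for control 1 and 15.2 to 21.2 CPM for NRG1 1. The means were 5.83 ± 3.40 and 41.1 ± 20.03 CPM (SD, n = 3 each), a ratio of 7.05 and a fitted log2 fold change of 2.83 (SE 0.55), or 2.77 without control 3 and NRG1 1. Of 15421 tested genes, 8 had a higher log2 fold change than CAMK2B and 9 a higher than IP6K3. These counts include NRG1, and for IP6K3 also CAMK2B. By size regardless of sign, 24 and 25 genes had a larger one. Both genes were chosen as higher in this contrast, so nothing is read from these ranks.

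The level of the vector's gene did not order the NRG1 libraries as these 2 genes did: NRG1 1 had the highest NRG1 level and the lowest CAMK2B and IP6K3 levels of its group. Both genes also followed the first principal component in part. Control 3, at its low end, had the lowest levels, and NRG1 2 and NRG1 3, at its high end, the highest. NRG1 1 lay level with control 1 and control 2 on that component, but at 65.4 against 7.46 and -4.06 on the second. Its CAMK2B level was 8.16 CPM, against 3.39 and 1.92 CPM in control 1 and control 2. Its IP6K3 level was 18.05 CPM, against 9.11 and 6.055 CPM. Both genes were chosen as higher in the NRG1 libraries, so nothing is read from this order. The part of these library differences in the CAMK2B and IP6K3 values was not tested.

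**Figure D1:**
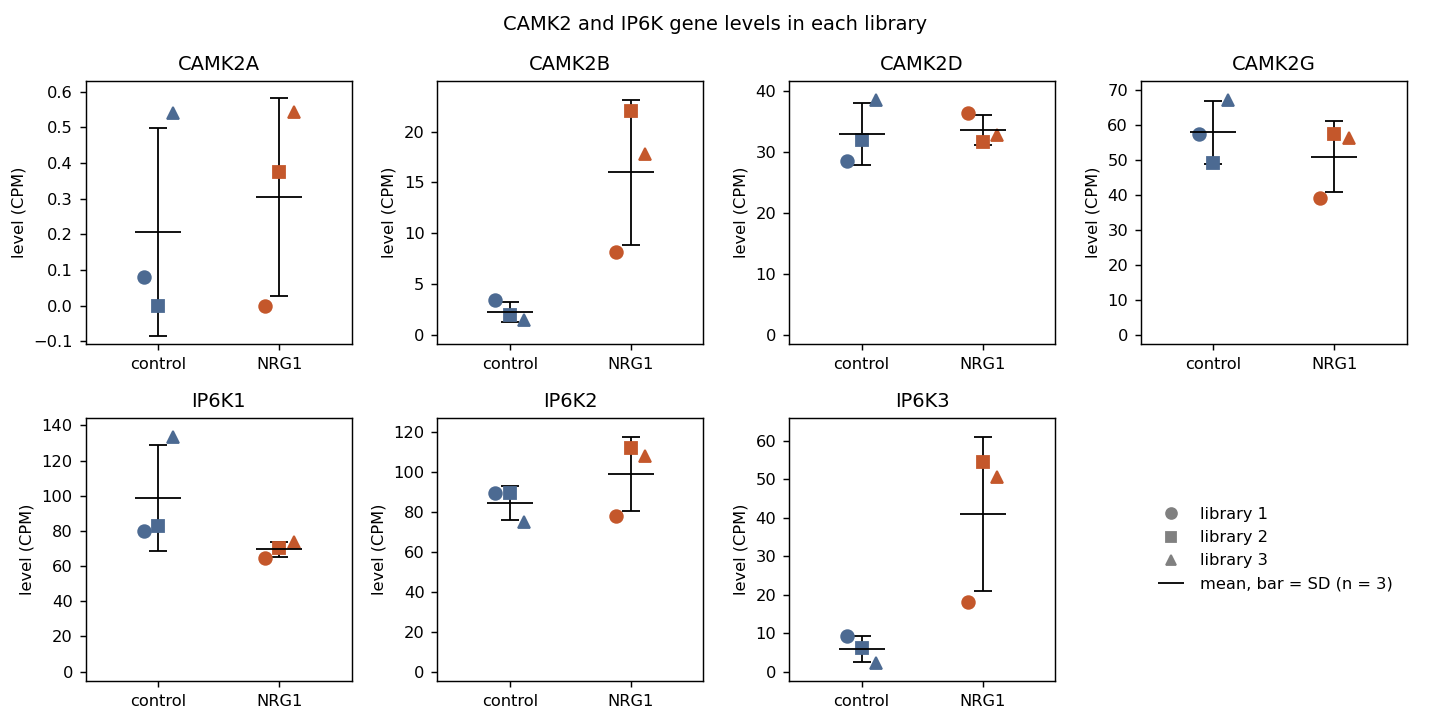
Level in CPM (vertical axis, linear) of each of the 7 genes in the 3 control (blue) and 3 NRG1 (orange) libraries; marker shapes give the library number, the horizontal line is the mean and the bar the SD (n = 3). CAMK2B and IP6K3 have all NRG1 libraries above all controls, IP6K1 has all of them below, and the groups overlap in the other 4 genes.

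**Figure D2:**
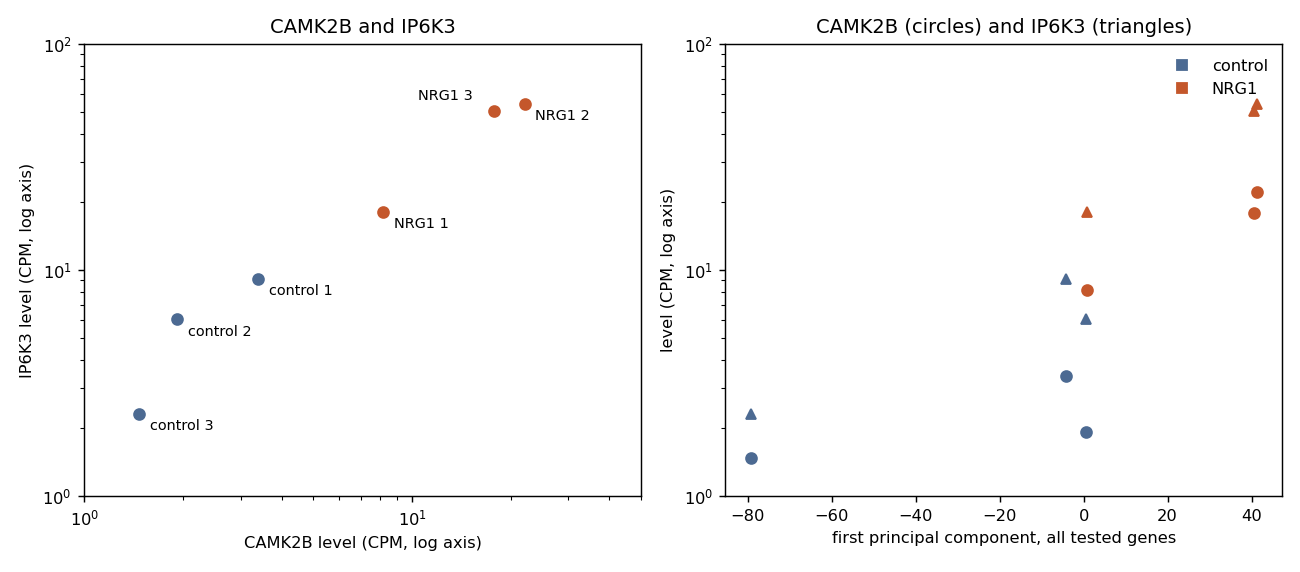
Left, IP6K3 level against CAMK2B level in the 6 libraries, both in CPM on log axes; right, the levels of both genes (log axis) against the first principal component of all tested genes. Control 3 is lowest for both genes, and NRG1 1 lies between the controls and the other NRG1 libraries.

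CAMK2G, the most abundant CAMK2 gene here, was at 57.6, 49.0 and 67.2 CPM in controls 1 to 3, against 39.2, 57.4 and 56.4 CPM in libraries NRG1 1 to 3. The groups overlapped, with NRG1 1 lowest of all. Its means were 57.9 ± 9.11 and 51.0 ± 10.2 CPM (SD, n = 3 each), with a fitted log2 fold change of -0.18 (SE 0.21), which turned to 0.088 without control 3 and NRG1 1. CAMK2D was at 28.5, 31.99 and 38.6 CPM among controls, against 36.5, 31.7 and 32.9 CPM among NRG1 libraries, so its NRG1 libraries lay within the control range. Its fitted log2 fold change was 0.026 (SE 0.19), with either sign across scalings and left-out libraries (-0.073 to 0.14). The neuronal paralog CAMK2A was at the limit of detection, with 1, 0 and 7 expected counts in controls 1 to 3 and 0, 4 and 5 in libraries NRG1 1 to 3. Its highest level was 0.543 CPM, and a library with 0 counts allows up to 3 counts, or 0.303 CPM in control 2 and 0.371 CPM in library NRG1 1. CAMK2A did not pass the low-count filter and has no tested fold change.

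IP6K1 was the member with lower levels in the NRG1 pools. It was at 80.0, 83.0 and 134 CPM in controls 1 to 3, against 64.8, 70.0 and 73.6 CPM in libraries NRG1 1 to 3, and all NRG1 libraries lay below all controls. The means were 98.9 ± 30.1 and 69.5 ± 4.44 CPM (SD, n = 3 each) and the fitted log2 fold change was -0.51 (SE 0.22). Control 3 carried much of this difference: without it the value was -0.24, and without control 3 and NRG1 1 it was -0.19. IP6K2 was at 89.7, 89.4 and 74.8 CPM among controls, against 77.9, 112 and 108 CPM among NRG1 libraries. NRG1 1 lay inside the control range and the other 2 NRG1 libraries above it, with a fitted log2 fold change of 0.23 (SE 0.19).

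Of the 7 members, 6 passed the low-count filter. By edgeR 0 of them were called at an adjusted p under 0.05, against 0.00648% of all tested genes, which is NRG1 alone; 2 had an unadjusted p under 0.05, both higher, against 11.8% of all tested genes in either direction and 5.07% higher. DESeq2 called 2 members, CAMK2B and IP6K3, both higher, against 1.36% of all tested genes in either direction and 0.597% higher. Without NRG1 1 edgeR called CAMK2B (0.311% of genes called), and without both control 3 and NRG1 1 it called CAMK2B and IP6K3 (9.84% of genes called). No member was called by edgeR without control 3 (0.00636% of genes called), with a replicate block (0.013%) or without the low-count filter (0.0704%), nor by limma-voom (0.013%). In 2 members all NRG1 libraries lay above all controls, as in 9.36% of tested genes, and in 1 member all lay below, as in 10.2%, together 19.6% of tested genes. Since the contrast chose the members, nothing is read from these counts.

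Levels of different genes were compared per kilobase of merged GENCODE 29 exons, lengths that range from 2785 bases in IP6K3 to 8159 in CAMK2B and stand in for the transcripts the cells used. In control the order was IP6K1 (19.0 ± 5.80 CPM per kb), IP6K2 (15.1 ± 1.51), CAMK2G (8.55 ± 1.34), CAMK2D (4.49 ± 0.695), IP6K3 (2.09 ± 1.22), CAMK2B (0.277 ± 0.123) and CAMK2A (0.0337 ± 0.0474). Only the libraries of the neighbours IP6K1 and IP6K2 overlapped in range. In NRG1 the order was IP6K2 (17.6 ± 3.30 CPM per kb), IP6K3 (14.7 ± 7.19), IP6K1 (13.4 ± 0.853), CAMK2G (7.52 ± 1.51), CAMK2D (4.57 ± 0.338), CAMK2B (1.96 ± 0.872) and CAMK2A (0.0497 ± 0.0452). There the 3 IP6K genes overlapped, and IP6K3 in NRG1 1, at 6.48 CPM per kb, lay within the CAMK2G range. CAMK2B stayed below CAMK2D in every library.

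The make-up of the families differed accordingly between the pools. CAMK2B made up 3.24%, 1.99% and 1.17% of the summed CAMK2 level per kilobase in controls 1 to 3, and 8.52%, 17.4% and 14.5% in libraries NRG1 1 to 3. The CAMK2G share averaged 64.0% ± 2.58 in control and 53.0% ± 3.27 in NRG1, and the CAMK2D share 33.7% ± 3.25 and 33.2% ± 7.87 (SD, n = 3 each). The summed CAMK2 level was 13.3 ± 1.87 CPM per kb in control and 14.1 ± 2.07 in NRG1, so CAMK2D and CAMK2G remained the bulk of the family message in both groups. In the IP6K family, IP6K3 made up 9.45%, 6.39% and 2.09% in controls 1 to 3, and 19.8%, 37.0% and 35.3% in libraries NRG1 1 to 3. IP6K1 averaged 52.0% ± 10.9 in control and 30.3% ± 6.74 in NRG1, and IP6K2 42.1% ± 7.52 and 39.0% ± 2.80. The summed IP6K level was 36.2 ± 3.20 CPM per kb in control, 32.8 in library NRG1 1, 52.9 in NRG1 2 and 51.5 in NRG1 3. These are shares of message, not of protein, and in bulk RNA fewer cells expressing a gene and less RNA per cell cannot be told apart.

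**Figure D3:**
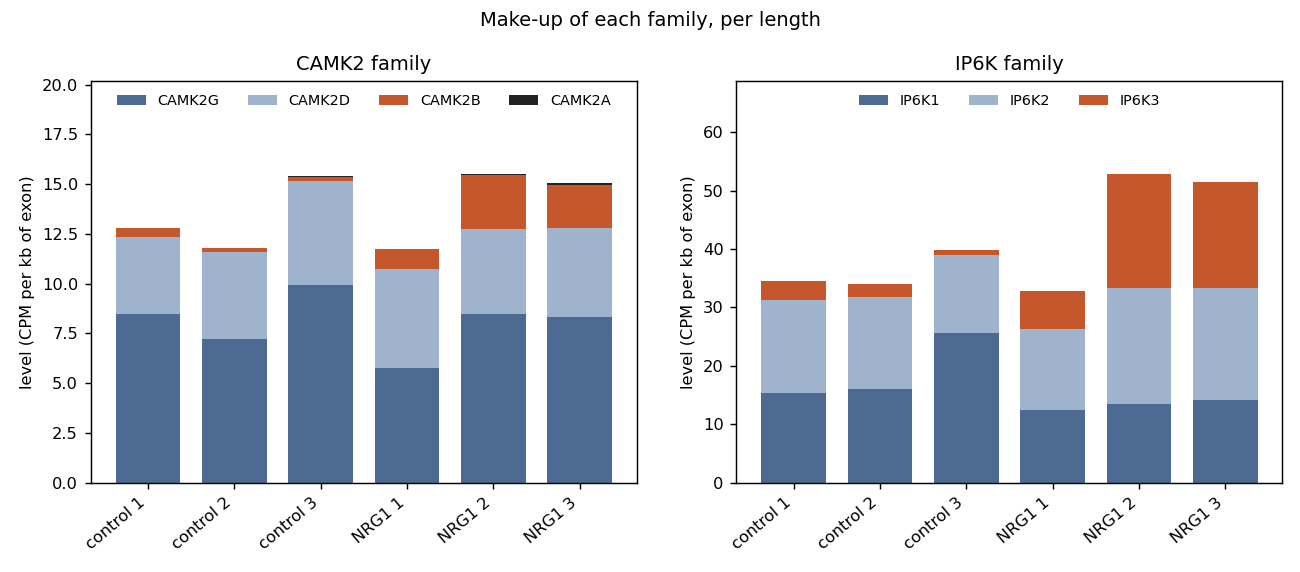
Stacked levels (CPM per kb of exon, vertical axis from 0) of the CAMK2 genes (left) and IP6K genes (right) in each library. The orange segments, CAMK2B and IP6K3, are larger in each NRG1 library than in any control, and the blue segments of the broadly expressed paralogs make up most of every bar.

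Reads shared with other genes touched the members unevenly. Expected counts were whole to within 0.005 in 5 of 6 libraries for CAMK2B and in 4 for IP6K3, but in only 2 for CAMK2G and 1 for IP6K2, and RSEM, named in the submitters' processing notes, shares reads that fit several genes. By GENCODE 29, no other gene overlaps CAMK2B or IP6K3. CAMK2A shares 129 exon bases with SLC6A7 on the opposite strand, which had at most 1 count in a library, and CAMK2G shares 213 with the antisense gene AC022400.1, which had at most 4.25. The direct protein-coding neighbours did not share the fold changes of CAMK2B and IP6K3. Fitted log2 fold changes were 0.0017 (SE 0.15) for YKT6 and -0.17 (SE 0.18) for NUDCD3, which flank CAMK2B, and 0.37 (SE 0.22) for UQCC2 and -0.20 (SE 0.18) for LEMD2, which flank IP6K3. The groups overlapped in all 4.

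Because CAMK2B and IP6K3 are known from nerve and muscle, markers of those cells were read in the same libraries. Of 13 neuron markers in the table, ELAVL4 and STMN2 had 0 counts in every library and 5 passed the low-count filter. Their summed level was 70.4 to 135 CPM among controls and 51.7 to 60.9 CPM among NRG1 libraries, without overlap, and TUBB3 and MAP2, which are not limited to neurons, made up most of it. Of 18 skeletal and cardiac muscle markers, MYH1, MYH2, MYH7, MYOD1 and MYF5 had 0 counts in every library. The muscle sum was 43.2 to 58.7 CPM in control, 42.9 CPM in library NRG1 1, and 81.0 and 76.0 CPM in the NRG1 2 and NRG1 3 libraries; TTN, a giant sarcomere protein, took 35.8 CPM of it in each of the latter. By edgeR 0 markers of either list were called. At an unadjusted p under 0.05 there were 2 of 5 tested neuron markers, both lower, and 0 of 5 tested muscle markers, against 11.8% of all tested genes. The 8 fibroblast markers summed to 81.4 to 120 CPM among controls and 28.3 to 32.5 CPM among NRG1 libraries. Only the matrix genes COL6A3, COL1A1 and DCN passed the low-count filter, and they made up most of that sum. All 3 had an unadjusted p under 0.05 with lower levels, and edgeR called 0. Leukocyte and endothelial markers summed to at most 8.97 CPM, with CD3E and CDH5 at 0 counts throughout. The part of the marker differences in the CAMK2B and IP6K3 levels was not tested.

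The surrounding pathways were read from 8 lists of calcium, calmodulin and inositol phosphate genes, chosen by role. Of 87 genes listed, 79 were tested, and edgeR called 0. The genes with an unadjusted p under 0.05 numbered 7 with higher and 6 with lower levels, together 16.5% against 11.8% of all tested genes, and DESeq2 called 1, MYLK, as higher. Without control 3 and NRG1 1, where 9.84% of all tested genes were called and 5.07% were called higher, edgeR called 6 genes, all higher: CALML5, CAMK1D, MYLK, CAMK2N1, ATP2B4 and NUDT3. The median log2 fold change of the 79 was -0.030, against 0.00034 for all tested genes.

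Calmodulin, the calcium sensor that opens the CAMK2 ring to its substrates, was abundant in both pools. Its gene CALM2 was at 339, 288 and 242 CPM in controls 1 to 3, against 463, 282 and 298 CPM in libraries NRG1 1 to 3, and the groups overlapped. All 5 calmodulin genes tested had a fold change above 0, with a median of 0.35, and 1, CALML5, had an unadjusted p under 0.05. CALML5, a calmodulin-like protein of differentiating skin, was at 0.371 CPM in library NRG1 1, just below the 0.386 to 1.41 CPM of the controls, and at 4.48 and 3.91 CPM in the NRG1 2 and NRG1 3 libraries.

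CAMK2N1, a small protein that inhibits CAMK2, had the group pattern of CAMK2B at smaller size. It was at 27.6, 19.2 and 12.2 CPM in controls 1 to 3, against 36.2, 42.4 and 41.9 CPM in libraries NRG1 1 to 3, without overlap. Its log2 fold change was 1.03 (SE 0.29), which did not pass edgeR over all genes (adjusted p = 0.332). PPP1CB, a catalytic subunit of protein phosphatase PP1, was at 234 ± 14.2 CPM among controls and 324 ± 53.7 CPM among NRG1 libraries (adjusted p = 0.359). Of the 8 CAMK2 inhibitors and phosphatases, 5 had a fold change above 0, with a median of 0.12.

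Among the other calmodulin-dependent kinases, MYLK, the myosin light chain kinase, was at 31.6, 25.3 and 19.9 CPM in controls 1 to 3, against 48.0, 47.8 and 44.8 CPM in libraries NRG1 1 to 3. Its log2 fold change of 0.87 (SE 0.21) had the smallest adjusted p of the 8 lists in edgeR (0.301), and DESeq2 called it (adjusted p = 0.0314). CAMK1, calcium and calmodulin-dependent kinase I, was at 15.3 ± 0.148 CPM among controls and 10.4 ± 1.22 CPM among NRG1 libraries (adjusted p = 0.412 in edgeR). CAMKK2, which phosphorylates kinases of this group, was at 69.4 ± 4.56 and 68.0 ± 9.10 CPM (adjusted p = 0.954 in edgeR). CAMK1G had 0 counts in every library.

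Calcium release and entry genes lay on both sides of 0, with 10 of 20 above it and a median of 0.00076. ATP2A2, the main SERCA pump that refills the endoplasmic reticulum, was at 467 ± 41.7 CPM among controls and 529 ± 15.9 CPM among NRG1 libraries (SD, n = 3 each; adjusted p = 0.607 in edgeR). ATP2A3, another SERCA gene, was at 4.11, 2.62 and 8.72 CPM in controls 1 to 3, against 1.73 to 1.96 CPM among NRG1 libraries, and PLCB1, a phospholipase C that makes the calcium-releasing messenger, was at 3.23 ± 0.359 and 5.51 ± 0.0765 CPM (adjusted p = 0.358 and 0.387 in edgeR). Other calcium and calmodulin targets had a median of -0.25, with 5 of 15 above 0. In this list NFATC1, a transcription factor that calcineurin switches on, was at 3.17 ± 0.408 CPM among controls and 1.48 ± 0.258 CPM among NRG1 libraries, RCAN3, a calcineurin regulator, at 26.1 ± 6.78 and 42.1 ± 2.99 CPM (adjusted p = 0.358 for both in edgeR), and MEF2A at 104 ± 48.8 and 82.1 ± 4.66 CPM (adjusted p = 0.653).

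On the inositol side, the kinases around the IP6K step had a median log2 fold change of -0.12, with 3 of 8 above 0. IPPK, which makes the hexakisphosphate that IP6K enzymes use, was at 43.7 ± 5.64 CPM among controls and 34.2 ± 3.28 CPM among NRG1 libraries (adjusted p = 0.471 in edgeR). PPIP5K1, which adds the other pyrophosphate group, was at 103, 114 and 61.2 CPM in controls 1 to 3, against 96.0, 132 and 134 CPM in libraries NRG1 1 to 3, with overlapping groups. ITPKA, a kinase of the calcium-releasing trisphosphate, was at 5.08, 6.46 and 8.11 CPM among controls and 2.72, 2.06 and 3.80 CPM among NRG1 libraries, a log2 fold change of -1.20 (SE 0.36; adjusted p = 0.335 in edgeR).

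NUDT3, a phosphatase that removes pyrophosphate groups and so counters the IP6K enzymes, was at 56.8, 55.7 and 31.3 CPM in controls 1 to 3, against 77.3, 74.9 and 76.2 CPM in libraries NRG1 1 to 3. All NRG1 libraries lay above all controls, but the log2 fold change of 0.67 (SE 0.24) did not pass edgeR (adjusted p = 0.373). NUDT4, the most abundant of these phosphatases and one with a near-identical copy that makes its counts uncertain, was at 67.5 ± 7.02 and 73.6 ± 11.96 CPM, and IMPA1, an inositol monophosphatase, at 45.8 ± 15.7 and 30.2 ± 8.22 CPM (adjusted p = 0.792 and 0.451 in edgeR). This list of 10 tested genes had 4 above 0 and a median of -0.038. Among the 4 tested genes of inositol supply and sensing, with 2 above 0 and a median of -0.017, the inositol transporter SLC2A13 was at 17.0 ± 4.54 CPM among controls and 11.3 ± 0.273 CPM among NRG1 libraries, and XPR1, a phosphate exporter that binds inositol pyrophosphates, at 95.4 ± 10.1 and 104 ± 8.94 CPM (adjusted p = 0.439 and 0.746 in edgeR).

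**Figure D4:**
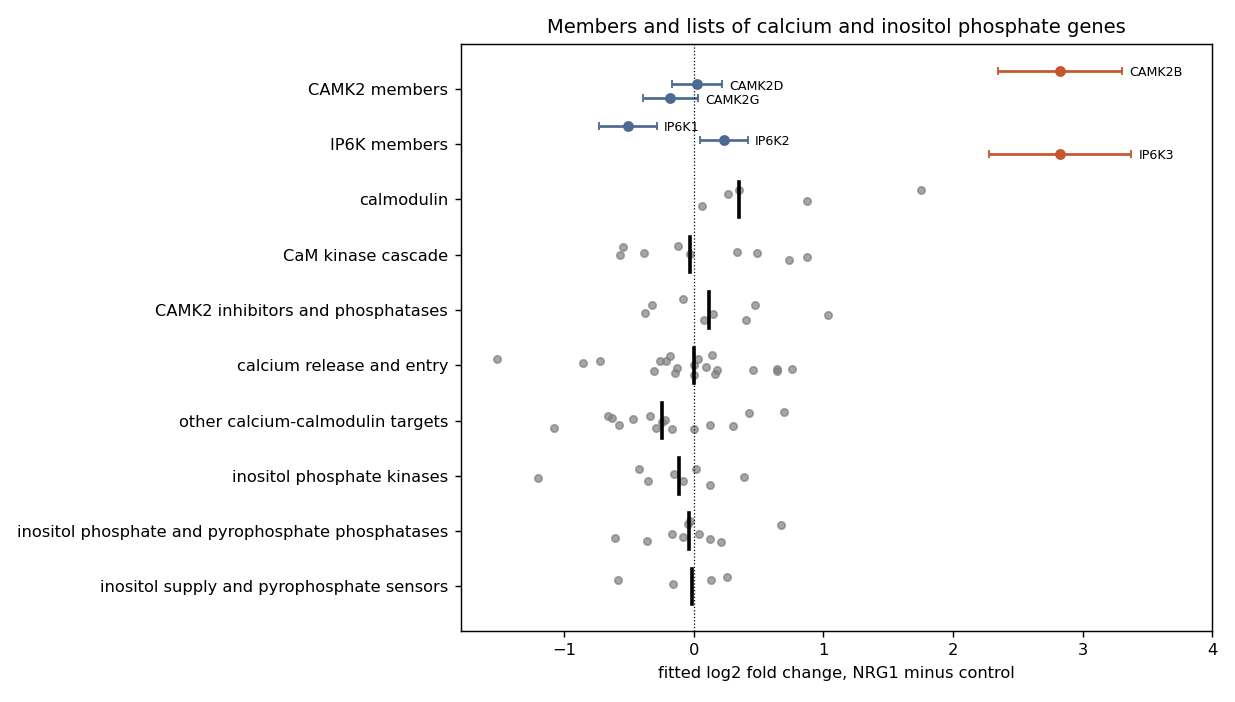
Fitted log2 fold change of NRG1 minus control for the 6 tested members (points with SE bars) and for every tested gene of the 8 pathway lists (grey points, with black lines at the medians). CAMK2B and IP6K3, which entered because they were higher in the NRG1 libraries, lie at 2.83, and the other members lie between -0.51 and 0.23.

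The genes whose levels followed CAMK2B and IP6K3 most closely were found by Pearson's r of log2 CPM over the 6 libraries among 14748 other genes with a symbol and a mean of at least 1 CPM. CAMK2B and IP6K3 themselves had r = 0.98, but both were chosen as higher in the NRG1 libraries, so nothing is read from this value. For CAMK2B the closest included COX5B, a subunit of cytochrome c oxidase (r = 0.997), SSH3, a cofilin phosphatase (0.996), and TFCP2L1, a transcription factor (0.994). For IP6K3 they were TCHH, the hair follicle protein trichohyalin (0.997), TFCP2L1 (0.995), SUMF1, an enzyme that activates sulfatases (0.995), and PTK6, a cytoplasmic tyrosine kinase (0.994). TFCP2L1 stood in both lists, at 166, 117 and 88.8 CPM in controls 1 to 3, against 234, 404 and 387 CPM in libraries NRG1 1 to 3. These values describe 6 libraries that share the group difference and the library differences; 107 genes reached r of 0.95 with CAMK2B and 160 with IP6K3.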

How the data were processed

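Gene expression was measured by RNA-seq of polyA RNA (TruSeq kit, per the labels' protocols) in 3 control and 3 NRG1 libraries, grouped by their titles. The deposited expected counts, estimated per Ensembl gene and not normalized, covered 57736 genes, with 8612234 to 13207620 per library. At that depth 10 CPM rests on about 100 counts. Per the submitters' processing notes, FastQC 0.11.3, MultiQC 0.9, RSEM 1.3.0, STAR 2.5.3a and hg19 were used, with no roles stated. The sources used here give neither the annotation nor whether strand was counted; the kit does not mark strand. The authors' deposited log2 table (14759 genes, 6 of the members) matched log2 CPM recomputed from the expected counts and was used only for that check.

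Expected counts were rounded, and R 4.3.3 with edgeR 4.0.16 fitted them (TMM, filterByExpr, quasi-likelihood test, Benjamini-Hochberg adjusted p under 0.05). Of the genes, 15421 were tested. Symbols came from a name table for 51959 genes. Exon lengths and overlaps were taken by identifier from GENCODE 29 (GRCh38). Alternatives were DESeq2 1.42.0 (15 adjusted p-values undefined), limma 3.58.1, other scalings and filters, a replicate block and left-out libraries. Named pathway genes are, per list, the 2 with the smallest p and the most abundant; some genes that the rules for named genes select are not reported here. Members and lists were chosen with earlier results of these data known, and the promoter motifs after the files were seen. The fits were first tested on simulated data, where a larger share of the DESeq2 calls than of the edgeR calls was false.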

Additional observations from a re-analysis of the deposited data

How the results depend on the processing

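Over 17 alternative settings the log2 fold change of CAMK2B stayed between 2.32 and 3.26 and that of IP6K3 between 2.42 and 3.33. IP6K1 stayed below 0 and IP6K2 above 0 in all of them. These settings refit the libraries whose contrast chose CAMK2B and IP6K3, so nothing is read from the sign of their values. Calls depended on the setting. Against 1 gene called in the main comparison, DESeq2 called 209 genes, 2 members and 1 pathway gene; edgeR without a low-count filter called 21 genes, limma-trend with either pseudocount 2 and limma-voom without rounding 2. Leaving out each library in turn gave 1 to 50 genes, 0 to 1 members and 0 pathway genes, the highest without NRG1 1. Without control 3 and NRG1 1 together, a setting chosen after seeing the data, the calls were 1547 genes, 2 members and 6 pathway genes; since distance picked the 2 libraries, the remaining spread and p-values are too small. The cause of these differences in calls was not tested. The replicate block called 2 genes and 0 members; same-numbered libraries deviated with correlations of 0.020, 0.12 and -0.080, so the numbers were not taken as pairs. With counts not divided by length, the IP6K3 share was 15.5 percentage points higher in NRG1 than in control, against 24.7 per kilobase, since IP6K3 is the shortest of the 3 genes; leaving out each library gave 21.6 to 30.2. Depth limits CAMK2A, whose 17 counts over 6 libraries allow no comparison, and CAMK2B in control, which rests on 19 to 42 counts.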
